A study of Mus musculus with 8 samples.

Results

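Early osteoblasts (eOBs) are cells that express osteoblast genes but still contain little mRNA of type I procollagen, the main protein of bone matrix. Here they were the osteoblasts (OBs) with Col1a1 below 0.75% of the cell's unique molecular identifiers (UMIs), in single-cell libraries of mouse parietal bone. A cell counted as an OB when its Col1a1 reached 10 UMIs and any 2 of Runx2, Sp7 and Ibsp reached 2 UMIs each. The cells were thus selected on their measured Col1a1, Runx2, Sp7 and Ibsp. This gave 379 eOBs of 2671 OBs, among 46420 cells left after removing those with fewer than 500 genes or with 10% or more of their UMIs mitochondrial. The comparison cells were 1217 differentiating OBs (dOBs, Col1a1 from 0.75% to 3.5%), 1075 mature OBs (mOBs, over 3.5%) and 43749 cells outside the OB rule (non-OB cells).

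All libraries came from parietal bones of pups of the strain B6.129(FVB)-Col1a2tm1Mcbr/J, 4 to 5 days after birth. There were 4 wild type (WT) libraries, S1, S2, S5 and S6, and 4 libraries (S3, S4, S7 and S8) from pups heterozygous (Het) for G610C, a glycine to cysteine substitution in the triple helix of the procollagen chain that Col1a2 encodes. The colony was kept on a C57BL/6J background. Each library pooled cells from up to 5 animals of its genotype, and the library was therefore the replicate. S1 to S4 were made with kit version 3 and counted with Cell Ranger 5.0.0, and S5 to S8 with kit version 3.1 and Cell Ranger 6.0.1, so kit, software and preparation cannot be told apart. The kit versions are those of the sample labels, whereas the methods of the study name version 3.1 chips without such a split, so a difference by kit version is one between these 2 sets of libraries.

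Osteoblasts arise from mesenchymal progenitors under the transcription factor RUNX2 and then Osterix, which Sp7 encodes. Bone sialoprotein, encoded by Ibsp, is secreted into the mineralizing matrix, and procollagen synthesis increases as the cells mature. Cxcl12 encodes a chemokine of marrow stromal cells and bone progenitors that retains haematopoietic cells, and Sox9 encodes the transcription factor that specifies cartilage and is also active in skeletal progenitors.

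The libraries contained 30480239 to 85162035 UMIs, and 3405 to 11368 cells passed quality control in each. WT S1 and WT S2 stood apart from the other libraries: 81.5% and 100% of their eOBs had at least 3 erythroid markers, against 1.72% to 27.3% in the other 6, and values without both are given where they were computed. Within kit version 3 these libraries were the whole WT arm, so the Het effect in that version has no value without them. Between 1 and 24 barcodes were shared by a pair of libraries after quality control, and 0 eOBs had a barcode found among the eOBs of another library.

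The number of eOBs was 81 in WT S1, 23 in WT S2, 22 in Het S3, 23 in Het S4, 95 in WT S5, 50 in WT S6, 58 in Het S7 and 27 in Het S8. Their median depth per library was 6571 to 15054 UMIs per cell. Most qualified through Runx2 with one partner: 163 eOBs passed the limits for Runx2 and Ibsp only, 129 for Runx2 and Sp7 only, 14 for Sp7 and Ibsp only, and 73 for all 3 genes. The Sp7 and Ibsp combination was found in 13 of 149 eOBs of kit version 3 and in 1 of 230 eOBs of kit version 3.1.

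The Runx2 limit was passed more often with kit version 3.1 in non-OB cells with at least 3 haematopoietic markers. These cells had 2 or more Runx2 UMIs in 1.11% to 2.80% of cases with kit version 3 and in 14.5% to 18.9% with kit version 3.1. Their median depth was 3430 to 5396.5 UMIs with version 3 and 7071 to 17738 with version 3.1. Cells that met the OB rule had been taken out, which limits these shares. The same cells passed the Sp7 limit in 0% to 0.188% of cases and the Ibsp limit in 0.228% to 4.0%. They contained at least 10 UMIs of Col1a1 in 1.55% to 28.4% of cases.

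Col1a1 (chr11:94936224-94953042, GRCm38) made up 0.311% to 0.530% of the summed eOB UMIs of a library. In cells with haematopoietic markers it made up 0.0234% to 0.241%. Hereafter the level of a gene is its share of all UMIs summed over the cells of the subpopulation in a library (%UMI). Log2 ratios between subpopulations are medians over the 8 libraries after adding 0.001%. The rule itself separated these subpopulations, so their comparison is a description with no test.

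Of the markers used in the rule, Runx2 (chr17:44495987-44814797) was 0.0348 to 0.0361%UMI in eOBs of kit version 3 and 0.158 to 0.242%UMI with kit version 3.1. In non-OB cells it was 0.00254 to 0.00788%UMI and 0.0599 to 0.0698%UMI. Both subpopulations were therefore higher with the newer kit, and eOBs lay above non-OB cells in every library. Sp7 (chr15:102356606-102367182) was 0.00952 to 0.0201%UMI in eOBs and 0.0171 to 0.0211%UMI in dOBs. Ibsp (chr5:104299171-104311469) was 0.0251 to 0.181%UMI in eOBs and 0.27 to 1.88%UMI in mOBs.

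The other markers that define the label, Cxcl12 and Sox9, were not used to select cells. Cxcl12 (chr6:117168535-117181367) was 0.167%UMI in WT S1 and 0.0900%UMI in WT S2. It was 0.00911%UMI in Het S3 and 0.0127%UMI in Het S4, and 0.0103, 0.0203, 0.0117 and 0.00641%UMI in S5 to S8. The first 2 libraries were thus far above the other 6, where WT and Het overlapped. In dOBs Cxcl12 was 0.0024 to 0.0284%UMI, below the eOB level in 7 of 8 libraries (log2 ratio 1.24), and in Het S8 the levels were 0.00641 and 0.0065%UMI. Against non-OB cells the eOB level was higher in 8 of 8 libraries (log2 ratio 1.71). Without WT S1 and WT S2, the log2 ratios were 0.89 against dOBs and 1.53 against non-OB cells, and with 0.01% added in place of 0.001% they were 0.54 and 0.70 over all libraries.

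At least 1 Cxcl12 UMI was found in 91.4% of the eOBs of WT S1, 82.6% of WT S2, 59.1% of Het S3 and 30.4% of Het S4. With kit version 3.1 the shares were 30.5%, 56.0%, 60.3% and 37.0% in S5 to S8. In cells with haematopoietic markers, of median depth 3430 to 17738 UMIs, the share was 1.38% to 6.62%. The eOB share was above it in each library. The UMIs were unevenly distributed. A single cell held 10.1% of the 2169 Cxcl12 UMIs of WT S1 eOBs and 38.5% of the 26 UMIs of Het S4.

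Sox9 (chr11:112782224-112787760) was 0.00887 and 0.0112%UMI in eOBs of WT S1 and S2, 0.00579 and 0.00833%UMI in Het S3 and S4, 0.0266 and 0.0250%UMI in WT S5 and S6, and 0.0174 and 0.0156%UMI in Het S7 and S8. It was higher in eOBs than in dOBs in 8 of 8 libraries (log2 ratio 1.31) and higher than in mOBs in 8 of 8 (2.04). Non-OB cells, which included many chondrocyte-like cells with high Col2a1, had more Sox9 than eOBs in 6 of 8 libraries. A Sox9 UMI was found in 26.1% to 49.4% of eOBs with kit version 3 and in 44.4% to 65.3% with version 3.1. Cells with haematopoietic markers had one in 0.865% to 8.40% and in 16.7% to 29.9%, respectively. Both Cxcl12 and Sox9 were detected in 4.35% (Het S4) to 44.4% (WT S1) of eOBs.

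**Figure D1:**
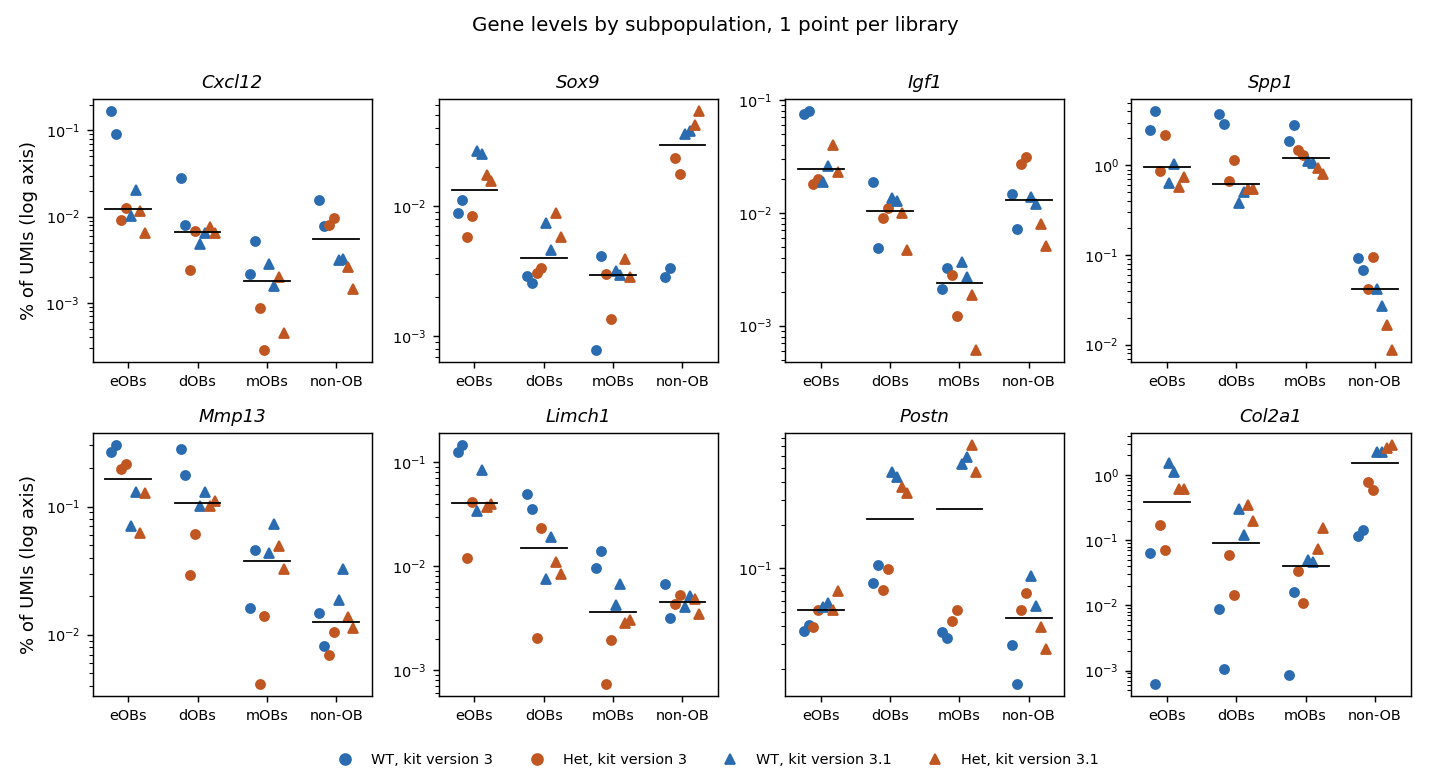
Levels of marker genes in eOBs, dOBs, mOBs and non-OB cells, in percent of summed UMIs on a log axis; each point is a library, by genotype and kit version, and bars are medians. Cxcl12 in eOBs was highest in WT S1 (0.167%) and WT S2 (0.0900%), and Sox9 was above dOBs in every library.

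Cells on either side of the 0.75% limit are given as a description. The 54 eOBs with Col1a1 from 0.65% to 0.75% had 0.0123%UMI of Cxcl12, 0.00876%UMI of Sox9 and 1.63%UMI of Spp1. The 50 dOBs from 0.75% to 0.85% had 0.0329%UMI of Cxcl12, 0.0113%UMI of Sox9 and 1.43%UMI of Spp1. These values are summed over libraries, and Het S8 had cells in the lower of the 2 bins only. Cxcl12 was the higher above the limit in WT S1 (0.0210 and 0.0842%UMI), WT S2 (0.0151 and 0.0581%UMI) and Het S4 (0.0035 and 0.0651%UMI). The same order was found in WT S5 (0.0053 and 0.0123%UMI) and Het S7 (0.0054 and 0.0192%UMI). It was the lower there in Het S3 (0.0108 and 0.00217%UMI) and WT S6 (0.0233 and 0.00708%UMI). In these libraries a bin held 2 to 14 cells.

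Levels also varied within eOBs by the amount of Col1a1. The 121 cells below 0.25% Col1a1 had a library median of 0.0264%UMI of Sox9 against 0.0074%UMI in the 137 cells from 0.5% to 0.75%, and Sox9 was higher below 0.25% in 8 of 8 libraries. The lowest bin held 2 cells in Het S3, 2 in Het S4, 3 in Het S8 and 7 in WT S2, and these libraries count like the others. Col2a1, the type II collagen gene of cartilage, went the same way in 8 of 8 libraries (0.915 and 0.102%UMI). Cxcl12 was higher in 5 of 8 (0.0252 and 0.0116%UMI), so its order varied between libraries. In the opposite direction, Runx2, Sp7, Spp1, Postn and Tnn were lower below 0.25% in 8 of 8 libraries. These bins were cut on Col1a1, to which the rule also applied, and are a description.

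**Figure D2:**
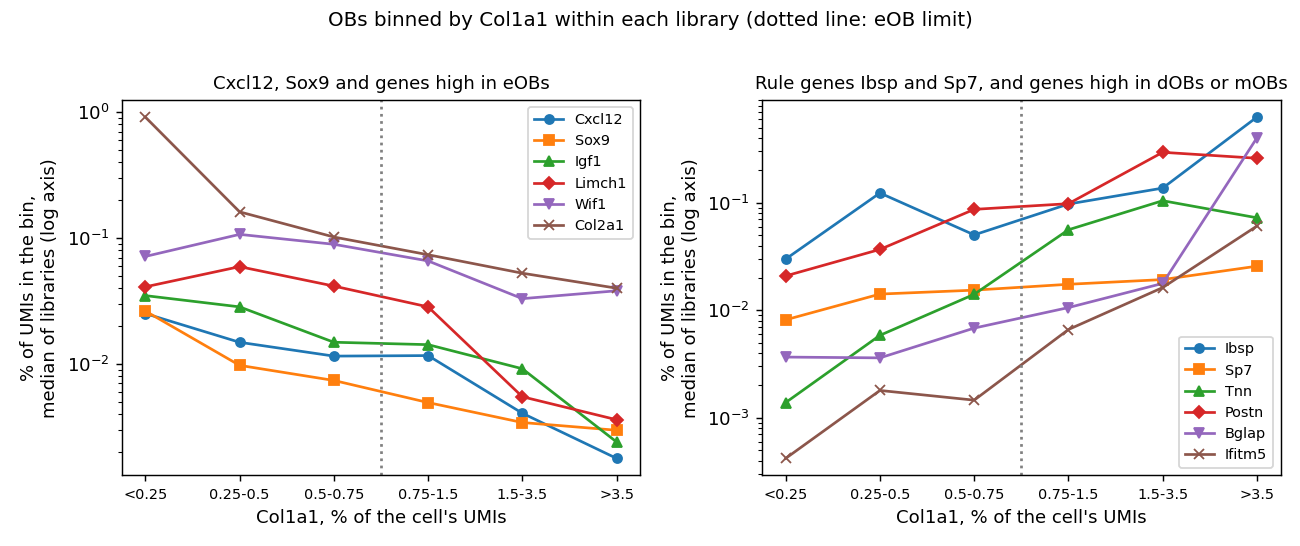
OBs of each library binned by Col1a1 (percent of the cell's UMIs); lines join the medians over libraries of the gene's share of UMIs in the bin, on a log axis, and the dotted line is the eOB limit of 0.75%. Sox9 and Col2a1 were highest below 0.25% Col1a1, and Postn and Tnn were lowest there.

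Against dOBs, 139 of 1898 genes (7.32%) with a mean of at least 0.01%UMI were higher in eOBs in every library, and 201 (10.6%) were lower. The number higher was 248 without WT S1 and WT S2 and 212 without Het S4. Without the eOBs and dOBs that carried at least 3 haematopoietic, endothelial, smooth muscle and pericyte, or fibroblast markers, the numbers were 59 and 96. Cells with cartilage markers stayed in. The genes with the largest median ratios, named by a fixed rule, fell into several roles. Among secreted regulators and matrix genes, Pappa, a protease that cleaves IGF-binding proteins, had a log2 ratio of 1.84, and Mmp9, a gelatinase that is also an osteoclast marker, of 2.05. Olfml2a, an olfactomedin-like extracellular protein gene, had a ratio of 2.09, Sned1, an extracellular matrix protein gene, of 1.67, and Col4a1, a basement membrane collagen gene, of 1.81. Col4a1 was 0.0775, 0.117 and 0.190%UMI in eOBs of WT S5, WT S6 and Het S7, the libraries with the most Pecam1, and 0.0156 to 0.0529%UMI in the other 5. Limch1, which encodes an actomyosin regulator, had a ratio of 2.03.

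Limch1 (chr5:66745827-67057158) was 0.127 and 0.148%UMI in eOBs of WT S1 and S2, 0.0120 and 0.0416%UMI in Het S3 and S4, 0.0341 and 0.0849%UMI in WT S5 and S6, and 0.0368 and 0.0396%UMI in Het S7 and S8. In dOBs of the same libraries it was 0.00202 to 0.0499%UMI, lower each time, and in mOBs it was 0.000733 to 0.0139%UMI. Igf1, the gene of insulin-like growth factor I, was also higher in eOBs than dOBs in 8 of 8 libraries. Its eOB levels were 0.0748 and 0.0794%UMI in WT S1 and S2 and 0.0178 to 0.0402%UMI in the other 6 libraries, with a log2 ratio to dOBs of 1.45, and of 0.94 without WT S1 and WT S2.

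Cartilage genes also appeared among the highest ratios: Col9a3 (2.13), which encodes a chain of type IX collagen, 3110079O15Rik (1.79), now named Snorc, and Mia (1.67), a secreted cartilage protein gene. Of the 11 members of the cartilage list found by symbol, 1, Col9a3, was higher in eOBs than dOBs in 8 of 8 libraries, beside 7.32% of all genes, and in WT S2 its sum was 2 UMIs in each subpopulation. The list median was 1.41, against 0.0064 for all 1898 genes. With Snorc under its older symbol, a match made after the results had been seen, 2 of 12 were higher and the median was 1.56. Against non-OB cells, 10 of the 11 were lower in eOBs in every library (list median −1.88), beside 5.87% of all genes. Immediate early genes, which respond to stimulation and to tissue dissociation, had a median log2 ratio of 1.54, and 5 of 8 measured members were higher in every library, beside 7.32% of all genes. Junb (1.71) was 0.00993 to 0.0785%UMI in eOBs and 0.00519 to 0.0159%UMI in dOBs. Egr1 was 0.00931 to 0.0479%UMI in eOBs and 0.0051 to 0.0142%UMI in dOBs.

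Collagen and other matrix genes were among those lower in eOBs than in dOBs. Col1a2, the partner chain of Col1a1, was 0.246 to 0.464%UMI in eOBs and 1.09 to 1.75%UMI in dOBs (log2 ratio −1.99). Of the 11 measured matrix collagen genes, 6 were lower in every library, beside 10.6% of all genes, and 0 were higher, with Col5a1 at −1.64. Lox, the enzyme that cross-links collagen, had a ratio of −1.79. Postn (periostin, −1.79) was 0.0367 to 0.0702%UMI in eOBs and 0.0714 to 0.464%UMI in dOBs. Tnn (tenascin-W, −2.95) was 0.00116 to 0.0451%UMI in eOBs and 0.0236 to 0.145%UMI in dOBs. Aspn (−1.90), Thbs2 (−1.73) and Lrrc15 (−2.13) completed this group with Smpd3 (−1.91), whose product is needed for mineralization, and Ifitm5 (−2.06), a gene of bone-forming osteoblasts.

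Against mOBs, 719 of the 1898 genes (37.9%) were higher in eOBs in every library and 232 (12.2%) were lower, and Igf1 had a log2 ratio of 3.54. Genes that fold and modify procollagen were also lower than in dOBs: 10 of 13 measured members were lower in eOBs in every library, against 10.6% of all genes, and 0 were higher (median −0.59). Serpinh1, the collagen chaperone HSP47, was 0.0782 to 0.129%UMI in eOBs and 0.125 to 0.183%UMI in dOBs. Creb3l1, a transcription factor for collagen genes, was 0.00385 to 0.0078%UMI in eOBs and 0.0124 to 0.0329%UMI in dOBs. Among 11 measured ER unfolded protein response genes, 3 were lower and 0 higher in every library (median −0.23). Of 12 transcription factors of osteoblast fate, 1 (Sox9) was higher and 0 lower in every library, beside 7.32% and 10.6% of all genes, with a list median of −0.11. Prrx1 of mesenchymal progenitors was 0.0287 to 0.0638%UMI in eOBs and 0.0308 to 0.0626%UMI in dOBs.

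Against non-OB cells, 254 of 1924 genes (13.2%) were higher in eOBs in every library and 113 (5.87%) were lower. Without WT S1 and WT S2, 253 were lower. The highest ratio was for Spp1 (osteopontin, 4.90), a matrix phosphoprotein gene. Spp1 (chr5:104435118-104441050) was 2.52 and 4.03%UMI in eOBs of WT S1 and S2, 0.868 and 2.21%UMI in Het S3 and S4, 0.631 and 1.05%UMI in WT S5 and S6, and 0.579 and 0.751%UMI in Het S7 and S8. In non-OB cells it was 0.00862 to 0.0947%UMI. The 2 ranges did not overlap. Spp1 was detected in 77.8% to 100% of eOBs, but also in 37.9% to 75.1% of cells with haematopoietic markers.

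Mmp13, the collagenase of bone and hypertrophic cartilage (chr9:7272514-7283331), was 0.0617 to 0.304%UMI in eOBs and 0.00696 to 0.0328%UMI in non-OB cells (log2 ratio 3.73). Alpl, the alkaline phosphatase of mineralizing cells, was 0.0211 to 0.0699%UMI in eOBs and 0.00204 to 0.00831%UMI in non-OB cells (3.33). Others of the leading 10 were Cp (3.47), Slit2 (3.34), Cdh2 (3.29), Limch1 (3.0), Lifr (2.91) and Vcan (2.87). Slit2 encodes a guidance ligand, Cdh2 the adhesion molecule N-cadherin, and Lifr a cytokine receptor. The 10 lowest genes were of haematopoietic cells, with S100a9 at −4.75, S100a8 at −4.73 and Lyz2 at −3.53. Against the 15370 non-OB cells with Col2a1 over 1%, which had chondrocyte genes, 588 of 1960 genes (30.0%) were higher in eOBs in every library and 380 (19.4%) were lower. Those cells were chosen on Col2a1 alone. Their median depth was 1051 UMIs in WT S5, against 10829 in its eOBs, and 4645 to 17974 UMIs in the other libraries. Sox9 was lower in eOBs than in those cells in 8 of 8 libraries (log2 ratio −2.19), and Slit2 (4.03) and Cxcl12 (2.71) were higher in 8 of 8.

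The promoters of these 10 genes were searched for TGTGGT on either strand, the core letters bound by RUNX proteins. In the RefSeq promoter table for GRCm38.p6, from 250 bases before to 50 after the RefSeq gene start, 8 of the 10 genes were matched, with 14 promoters. The letters were held by 2 of the 14 (14.3%) and by 16.8% of all 32851 promoters in the table. The matching stretches are shown because Spp1 and Mmp13 also had the highest ratios to non-OB cells. Capitals mark the letters, in the reverse orientation ACCACA, on the plus strand.
Spp1, chr5:104434971-104435000: tttttttttttaACCACAaaaccagaggag
Mmp13, chr9:7272384-7272413: attctgccacaaACCACActtaggaagaaa
A match of letters is a description of the sequence and not a measurement of binding.

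Reticular stroma and niche genes were checked because Cxcl12 is shared with those cells. At least 3 of 9 reticular stroma markers were detected in 71.6% of eOBs of WT S1, 39.1% of WT S2, 22.7% of Het S3, 26.1% of Het S4, and 36.8%, 56.0%, 53.4% and 48.1% of S5 to S8. In dOBs the share was 15.2% to 50.2%. Kitl, the stem cell factor gene, was 0 to 0.0151%UMI in eOBs and 0 to 0.00179%UMI in dOBs. The highest eOB value was that of Het S7 (169 UMIs), and the other Het libraries had at most 9 UMIs. Of 2 measured reticular stroma genes, 0 were higher in eOBs than dOBs in every library, beside 7.32% of all genes. Foxc1, a transcription factor of reticular cells, was higher in eOBs than dOBs in 7 of 8 libraries (log2 ratio 0.96). Angpt1, an endothelial growth factor gene, was 0.00248 to 0.0190%UMI in eOBs and 0.0035 to 0.0144%UMI in dOBs.

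The eOB gate also held cells with markers of other types. With thresholds of at least 3 markers, cartilage markers were found in 4.94%, 4.35%, 59.1% and 26.1% of eOBs of S1 to S4, and in 92.6%, 88.0%, 98.3% and 100% of S5 to S8. In dOBs the shares were 9.09% to 67.2% and 95.3% to 100%. A Col2a1 UMI was found in 94.0% to 100% of eOBs with kit version 3.1, and in 91.9% to 98.8% of cells with haematopoietic markers in the same libraries, so a Col2a1 UMI in these libraries was at the level of background. Smooth muscle and pericyte markers were found in 34.7% to 60.3% of eOBs, fibroblast markers in 0% to 34.8%, haematopoietic markers in 0% to 13.6%, endothelial markers in 0% to 6.90% and osteoclast markers in 0% to 8.70%. Schwann cell and skeletal muscle classes were found in 0% of eOBs.

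Pecam1, an endothelial adhesion gene, was 0.0191, 0.0156 and 0.0297%UMI in eOBs of WT S5, WT S6 and Het S7, and 0.000279 to 0.00196%UMI in the other 5. Of the 379 eOBs, 184 had fewer than 3 markers of each of the haematopoietic, endothelial, smooth muscle and pericyte, and fibroblast classes. When cartilage was added, 73 remained, 61 with kit version 3 and 12 with version 3.1. Doublets were not removed, and their part in these shares was not tested.

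**Figure D3:**
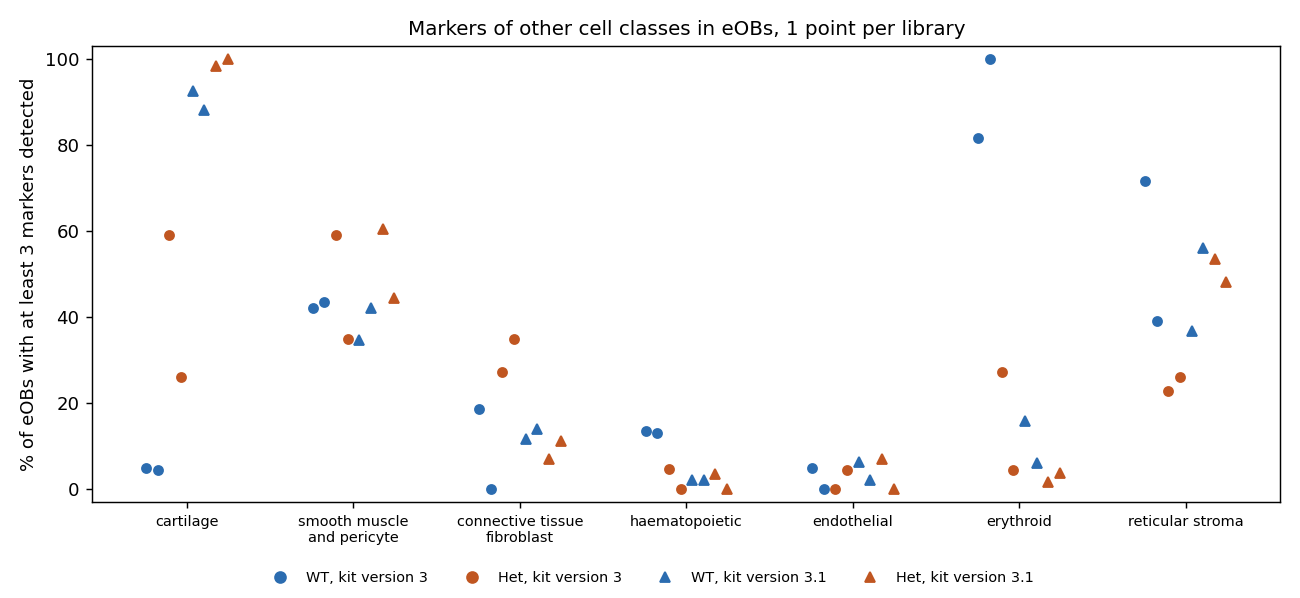
Percent of eOBs of each library with at least 3 detected markers of a cell class, with each point a library, by genotype and kit version. Cartilage markers were found in 88.0% to 100% of eOBs with kit version 3.1, and erythroid markers in 81.5% and 100% of those in WT S1 and WT S2.

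Thinning each cell to 2000 UMIs, which 376 of the 379 eOBs allowed, lowered the cartilage shares to 1.23%, 0%, 28.6% and 17.4% in S1 to S4 and to 71.6%, 48.0%, 45.6% and 34.6% in S5 to S8. The reticular stroma shares fell to 0% to 32.1%, and the smooth muscle and pericyte shares to 0% to 14.0%. High Col2a1 was found in a distinct part of the eOBs. It exceeded 1% of UMIs in 66 eOBs, 3 with kit version 3 and 63 with version 3.1, which were 41.1%, 28.0%, 10.3% and 14.8% of the eOBs in S5 to S8.

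With kit version 3.1, the 63 eOBs above 1% Col2a1 differed in many genes from the 167 at or below it. They had more Sox9 (0.0504 against 0.00896%UMI) and Acan, the cartilage proteoglycan gene (0.214 against 0.0144%UMI). They had less Runx2 (0.111 against 0.227%UMI), Sp7 (0.00596 against 0.0150%UMI), Spp1 (0.212 against 0.980%UMI), Alpl (0.00948 against 0.0505%UMI) and Cxcl12 (0.00218 against 0.0180%UMI). The subset with high Col2a1 thus had the higher Sox9 and the lower Cxcl12. The 2 subsets were split on a gene of the same cells, so the values are a description. Measured against its label, the whole gate had Spp1, Alpl and Mmp13 above non-OB cells in every library, genes named from the top of that ranking. Of 8 measured osteoblast genes outside the rule, 4 were higher than in non-OB cells in every library and 0 lower (median 0.79). All genes were at 13.2% and 5.87% there. Against dOBs, 7 of 11 measured genes of this list were lower in every library, beside 10.6% of all genes, and 0 were higher (median −0.70). In dOBs Spp1 was 0.383 to 3.74%UMI and Alpl 0.0339 to 0.0771%UMI, which overlapped their ranges in eOBs. At least 3 later osteoblast and osteocyte markers were found in 76.5%, 73.9%, 50.0% and 47.8% of eOBs of S1 to S4 and in 48.4%, 54.0%, 39.7% and 48.1% of S5 to S8. In dOBs the shares were 83.1%, 90.9%, 73.1% and 72.5%, and 45.0%, 65.7%, 48.7% and 45.6%, so the eOB share was the higher in WT S5 and Het S8.

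The next comparison was of genotype, which the rule did not use. The eOB share of OBs was 33.3% (95% interval 27.4% to 39.6%, exact Clopper-Pearson) in WT S1, 17.3% in WT S2, 13.1% in Het S3, 7.26% (4.65% to 10.7%) in Het S4, 11.6% in WT S5, 9.82% in WT S6, 18.1% in Het S7 and 17.0% in Het S8. Intervals cover counting error only. Het libraries were lower by 15.1 points within kit version 3 and higher by 6.83 points within version 3.1, and the groups overlapped (difference over all libraries −4.16 points, two-sided exact permutation test, p = 0.6, n = 4 libraries each). Without WT S1 the difference was 0.954 points. Of all cells, eOBs made up 0.307% to 1.70%, with a Het minus WT difference of −0.353 points (two-sided exact permutation test, p = 0.314, n = 4 libraries each, smallest possible p 0.0286). For this share it was −0.126 points without WT S1 and −0.530 without WT S2.

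The share of eOBs with markers of another class was also compared. Het minus WT was 23.4 points for cartilage, −5.68 for haematopoietic, −0.502 for endothelial, 9.12 for smooth muscle and pericyte, and 8.99 for fibroblast markers. Leaving out 1 library moved cartilage to between 9.01 (without WT S2) and 38.4 (without WT S5), fibroblast to between 4.07 (without Het S4) and 13.4 (without Het S7), and endothelial to between −1.86 (without Het S7) and 0.498 (without WT S5). It also moved haematopoietic to −3.72 without WT S1 and smooth muscle and pericyte to 5.56 without Het S7 and 14.1 without Het S4. None of the 5 passed the two-sided exact permutation test (n = 4 libraries each, adjusted p from 0.524 to 0.743), which ignored kit version. For cartilage, Het was higher by 37.9 points within version 3 and by 8.82 within version 3.1, and both Het libraries lay above both WT libraries each time. The order in version 3 was also that of other cells: dOBs had cartilage markers in 14.6% and 9.09% (WT) and 67.2% and 36.3% (Het), mOBs in 9.59% and 16.9% and in 78.5% and 43.2%, and Col2a1 was detected in 10.6% and 10.7% and in 60.0% and 33.4% of the cells that carried haematopoietic markers. In an exact permutation test within kit versions (36 assignments), added after the results had been seen, cartilage had p = 0.0556, the smallest that test can give, and an adjusted p of 0.278. The adjusted p of the other 4 classes was 0.417 to 0.722 in that exact test. After thinning to 2000 UMIs, the differences were 1.34 points for cartilage (22.4 within version 3 and −19.7 within version 3.1), −0.445 for haematopoietic, 0.156 for endothelial, 1.80 for smooth muscle and pericyte and 1.29 for fibroblast markers.

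UMI counts summed over the eOBs of each library were tested gene by gene with edgeR, with kit version in the model. Of 8118 genes, 0 (0.0%) passed an adjusted p of 0.05 for Het against WT, and 310 (3.82%) had an unadjusted p under 0.05, 155 in each direction. DESeq2 called 3. The p-values measure the spread between libraries of pooled pups. The genes named are those with the lowest p among those whose Het and WT libraries did not overlap inside either kit version, in the same direction. The separation within each kit version was thus a condition of the choice and not a result. How many of all genes met it was not counted.

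S100a4, a calcium-binding protein gene of motile and mesenchymal cells (chr3:90603771-90606045), was 105 and 105 CPM (the normalised UMI count scaled to library size) in WT S1 and S2 and 343 and 160 CPM in Het S3 and S4. It was 79.7 and 58.6 CPM in WT S5 and S6 and 256 and 200 CPM in Het S7 and S8. Every Het library was above every WT library, with a log2 fold change of 1.51 ± 0.24 (SE, adjusted p = 0.155). Thy1, a surface protein gene of mesenchymal progenitors, had 10.9 to 28.8 CPM in WT and 43.5 to 141 CPM in Het libraries (1.67 ± 0.38, adjusted p = 0.538). Specc1 (1.15), Sncaip (1.21) and Tuba1a (0.50), a tubulin gene, were the others with a positive value. Tuba1a was at −0.13 without eOBs that carried markers of another class, cartilage not counted, a fit of 7 libraries.

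Klhl33 (chr14:50888582-50897507), a member of the kelch-like family, had 111 and 76.2 CPM in WT S1 and S2 and 0 and 11.02 CPM in Het S3 and S4. It had 22.7 and 23.6 CPM in WT S5 and S6 and 4.11 and 2.59 CPM in Het S7 and S8, again with no overlap between genotypes (−3.21 ± 0.45, adjusted p = 0.103). Atp13a3, a polyamine transporter gene, had 61.0 to 167 CPM in WT and 29.6 to 49.6 CPM in Het libraries (−1.40 ± 0.23, adjusted p = 0.184). Socs3, the cytokine signalling inhibitor gene (−1.13), S100a1 (−1.18) and Cd36, a fatty acid receptor gene (−2.65), were the others, each with an adjusted p of 0.431. None of these 10 genes passed the threshold in the edgeR test over all libraries. Within kit version 3 Klhl33 (−4.22, edgeR adjusted p = 0.00978) and Atp13a3 (−1.71, adjusted p = 0.0329) passed it.

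Lists of genes were described by their medians beside that of all 8118 genes, −0.00066. The ER unfolded protein response list (22 tested) had a median of 0.07 and the mitochondrial one (11 tested) of 0.14, and the procollagen folding list (16 tested) of −0.10. The integrated stress response list (27 tested) was at −0.10. Each had 0 genes called. Hspa5, the ER chaperone BiP, was at 0.22 ± 0.18 (SE), and Hspa9, the mitochondrial chaperone, at 0.31 ± 0.19. Of 12 matrix collagens, 11 had a positive value (median 0.30), among them Col1a2 at 0.27. The 6 reticular stroma genes tested were all negative, with a median of −0.71, and Cxcl12 was at −2.11 (edgeR unadjusted p = 0.00179, adjusted p = 0.909), and at −0.75 without WT S1 and WT S2. All 12 S phase and mitosis genes were positive (median 0.58).

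These last medians were −1.66 and 1.51 within kit version 3 and −0.17 and −0.06 within version 3.1, and the difference between kit versions was therefore tested, after the results had been seen. Within kit version 3, 117 of 8118 genes (1.44%) were called for Het against WT, 73 higher (0.899%) and 44 lower (0.542%), and within version 3.1 0 genes were called, with 500 (6.16%) at an unadjusted p under 0.05. The Het effect itself differed between kit versions in 87 genes (1.07%) in the same edgeR fit, 29 (0.357%) with a higher and 58 (0.714%) with a lower effect in version 3.1, and 1106 (13.6%) had an unadjusted p under 0.05. With all 8 libraries, the number was 2 when cells had to have under 5% mitochondrial UMIs. It was 37 without eOBs of Col2a1 over 1%. The number depended on which library was left out. It was 28 without WT S1, 31 without WT S2, 2 without Het S3, 8 without Het S4, 14 without WT S5, 163 without WT S6, 60 without Het S7 and 277 without Het S8. Each of these fits has 1 arm of a single library, which is assumed to vary like the others.

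Genes named from the 87 were chosen after their values were seen. Cxcl12 differed by a log2 fold change of −3.58 between Het and WT eOBs within kit version 3 and by −0.75 within version 3.1, a difference of 2.83 ± 0.54 (SE, adjusted p = 0.0258). Igf1 was at −2.04 and 0.45, the growth factor gene Angpt1 at −1.93 and 0.51, and the vitamin D receptor gene Vdr at −2.29 and −0.01. Trf (−4.05 and −0.38), Kcnk2 (−2.81 and −0.09) and Ebf1 (−1.51 and 0.41) had the same order. Of the 6 reticular stroma genes tested, 0 were among the 87. In the other direction were Sfrp2, a Wnt modulator gene (4.35 and −1.21), Sox5, a partner of Sox9 (3.79 and −0.55), Mgp, a mineralization inhibitor gene (2.56 and −0.78), Col9a2 (3.03 and −1.15), Tnn (4.71 and −0.70) and Top2a of dividing cells (1.98 and −0.13). The 11 cartilage genes tested had a median of 2.06 within version 3 and −1.15 within version 3.1, and the 12 S phase and mitosis genes of 1.51 and −0.06.

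Marker detection moved with these values. In kit version 3, erythroid markers were found in 81.5% and 100% of WT and in 27.3% and 4.35% of Het eOBs, and haematopoietic markers in 13.6% and 13.0% of WT and in 4.55% and 0% of Het eOBs. The erythroid shares in dOBs of the same libraries were 79.8%, 100%, 31.3% and 15.7%. Hbb-bs, a haemoglobin gene, was detected in 98.8%, 100%, 86.4% and 78.3% of eOBs of S1 to S4. It was detected in 98.7%, 99.9%, 78.8% and 59.6% of cells with haematopoietic markers, so its RNA was widespread outside eOBs as well. Cartilage markers were found in 4.94% and 4.35% of WT and in 59.1% and 26.1% of Het eOBs, reticular stroma markers in 71.6% and 39.1% of WT and in 22.7% and 26.1% of Het eOBs, and S phase or mitosis markers in 25.9% and 21.7% of WT and in 50.0% and 34.8% of Het eOBs. Het S3 and Het S4 contributed 22 and 23 cells. The part of free RNA and of cell composition in the 87 genes was not tested.

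**Figure D4:**
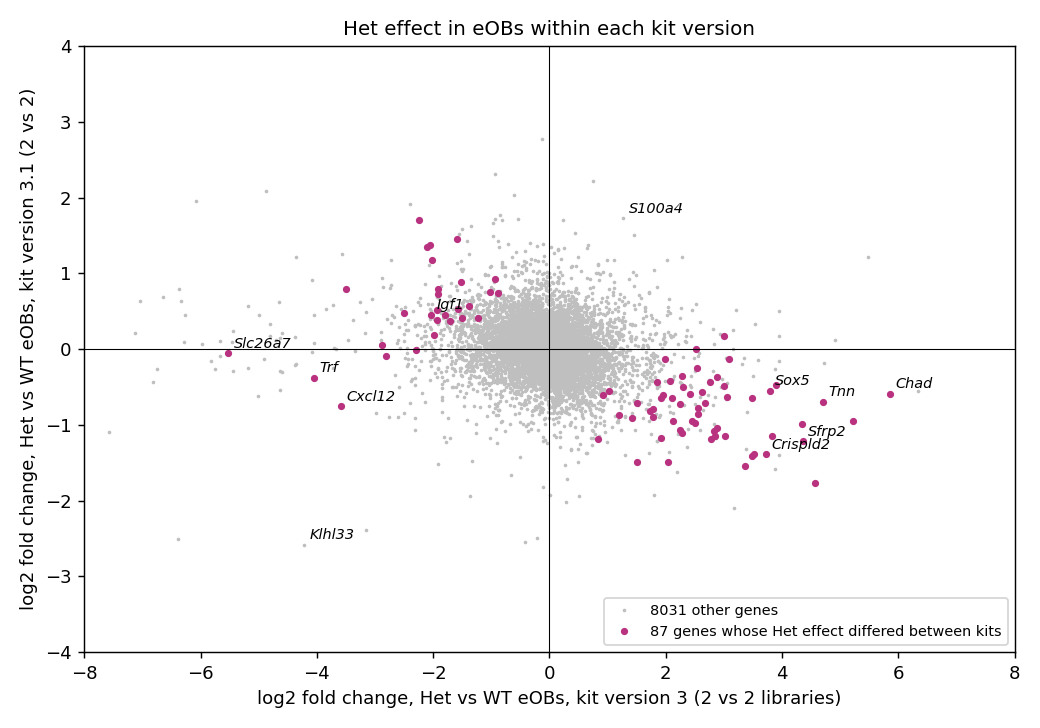
Log2 fold change of Het against WT in eOBs for all 8118 genes, within kit version 3 (horizontal axis) and within version 3.1 (vertical axis, limits −4 to 4), with the 87 genes that differed marked. Cxcl12 lay at −3.58 and −0.75 and Sox5 at 3.79 and −0.55.

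Whether eOBs responded to the genotype differently from later OBs was tested in models that fitted each library and asked for the change in genotype effect. The effect in eOBs minus that in dOBs passed in 0 of 10267 genes (388, or 3.78%, at an unadjusted p under 0.05). Against mOBs it passed in 0 of 10490 genes (351, or 3.35%). DESeq2 called 0 genes in either term.

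The largest difference between eOB sums was by kit version. Of 8118 genes, 3415 (42.1%) were called between versions 3.1 and 3 in the edgeR fit (50.4% at an unadjusted p under 0.05), 1904 (23.5%) higher and 1511 (18.6%) lower, and the first principal component held 60.6% of the variance. This contrast is between 4 and 4 libraries that also differed in software release and preparation. The genes called higher with version 3.1 had longer introns. The median intron total, by GENCODE M21 in GRCm38, was 100.9 kb in genes called higher and 5.94 kb in genes called lower, against 24.3 kb in all 8111 genes with a position. In 4 equal groups of genes, ordered from the shortest to the longest intron total, the median log2 fold change was −0.63, −0.29, 0.20 and 1.14. Whether intronic reads were counted is not given in the sources used here.

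Most of the genes with the largest rises had long introns. Kcnq5, a potassium channel gene with 556 kb of introns (chr1:21398403-21961942), was 0 to 0.861 CPM in S1 to S4 and 717, 642, 282 and 376 CPM in S5 to S8. In non-OB cells of S5 to S8 it was 0.0896 to 0.108%UMI. Hdac9 (7.10), Jazf1 (7.99), Cacnb2 (6.32), Slc35f1 (6.40), Kcnd2 (6.01) and the gene models Gm29478 (7.85) and Gm20388 (10.0), a locus that overlaps other genes and whose counts are uncertain, also lay in the group with the longest introns. Gm16070 (6.20) lay in the next, and Clec3a (7.20), a cartilage lectin gene, in the shortest. In S1 to S4, Gm20388, Jazf1 and Gm29478 had 0 CPM, and Kcnq5, Hdac9, Kcnd2 and Gm16070 at most 0.861 CPM. They passed the count filter through S5 to S8, so the sizes of their log2 fold changes are uncertain. Of the genes that selected the cells, given with no test, Runx2 had a log2 fold change of 2.25 with version 3.1 and Ibsp of −1.70.

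**Figure D5:**
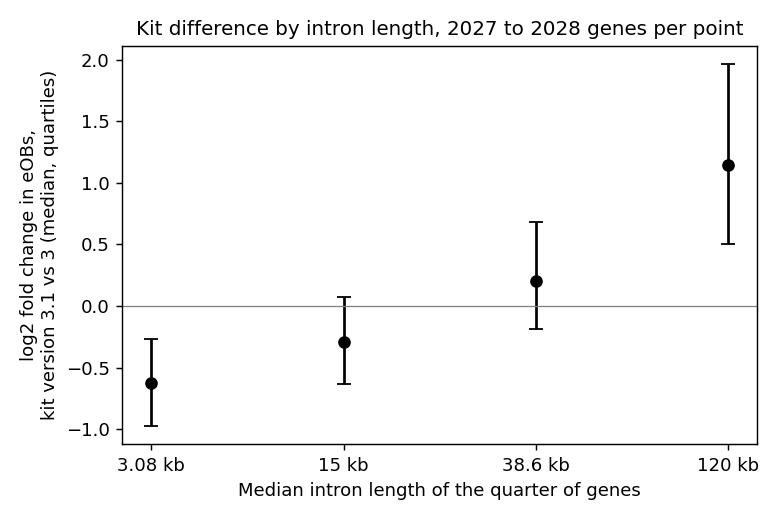
Log2 fold change between kit versions 3.1 and 3 in eOBs in 4 equal groups of genes by total intron length; points are medians, bars are the interquartile range, and the axis labels give the median intron length of each group. The medians were −0.63, −0.29, 0.20 and 1.14 from shortest to longest.

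Some groups with shorter introns were also higher. Over all genes, 23.5% were called higher and 18.6% lower, as given before. All 11 cartilage genes tested were higher with version 3.1 (median 3.37), with a median intron total of 20.5 kb. So were 10 of 13 immediate early genes (median 1.86), whose introns total 0.678 kb at the median. Of 6 endothelial genes, 5 were higher, and the median intron total of that list was 62.2 kb. Lower genes included 4 of 6 later osteoblast and osteocyte genes and 11 of 22 ER unfolded protein response genes. The 10 called genes with the largest falls were Dmp1 (−2.99) and Bglap2 (−2.19), genes of osteocytes and mature osteoblasts of which the latter has near-identical copies, Sfrp4 (−2.86), Kbtbd11 (−2.59), Hist1h1b (−2.58), Lars2 (−2.35), Gdpd2 (−2.27), Wisp2 (−2.25), AY036118 (−2.22) and Ifitm1 (−2.15). Hist1h1b was at 1.03 when the rule asked for at least 3 UMIs of each gene, which left 6 libraries.

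The label markers moved in opposite directions between kit versions. Cxcl12 was lower with version 3.1 (−2.10, edgeR adjusted p = 0.0085) and Sox9 higher (1.09, adjusted p = 0.00063). When eOBs with Col2a1 above 1% were left out, the Sox9 difference was 0.08 and was no longer called. With at least 3 UMIs required of each gene, which left 6 libraries, Sox9 was at 1.08 and not called (edgeR adjusted p = 0.0521). Without the eOBs of Col2a1 above 1%, Cxcl12 was at −1.72. When WT S1 and WT S2 were left out, Cxcl12 was at −0.48 and no longer called, and Sox9 at 0.95 and still called. Cxcl12 was no longer called when WT S6 was left out or when cells had to have under 5% mitochondrial UMIs (−1.78 in both cases).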

How the data were processed

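Cells from parietal bone were captured with 10x Genomics polyA kits and the authors deposited UMI counts per gene and cell for 8 libraries, unnormalized. Per the file headers, counts came from Cell Ranger 5.0.0 (S1 to S4) or 6.0.1 (S5 to S8), and the submitters' processing notes name mm10. Cells with at least 500 genes and under 10% mitochondrial UMIs were kept. Counts were summed over the cells of each subpopulation in each library. Doublets and free RNA were not removed. The members and gene lists were chosen with earlier results of these data known.

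Het and WT sums were compared with the edgeR (4.0.16) quasi-likelihood test with kit version as covariate, TMM normalization and filterByExpr, in R 4.3.3, with Benjamini-Hochberg adjustment and a threshold of 0.05. DESeq2 (1.42.0) was an alternative. Shares of cells were compared with exact permutation tests over all 70 assignments of libraries. Levels were percent of UMIs with a pseudocount of 0.001%, and genes needed a mean of at least 0.01% in either subpopulation. Scripts were tested on simulated data. Gene positions and introns came from GENCODE M21 (GRCm38), the build of the files, and promoters from RefSeq.

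Named genes were the label markers and list members, the 10 genes highest and 10 lowest against dOBs and non-OB cells with 1 sign in every library, up to 10 called genes in each direction for genotype and kit (mean of at least 20 CPM for kit), and the 5 genes in each direction with the lowest p for genotype on the same side in both kit versions. Genes used in the rule, haemoglobin genes, Xist, Tsix and the Y-linked genes Uty, Ddx3y, Kdm5d and Eif2s3y were left out of these rankings, and some results for single genes are not reported here. Of the 288 marker and list genes, 287 were in the files by symbol, and Snorc was there under its older symbol, 3110079O15Rik in RefSeq, and was not counted in the cartilage class. Alternatives were another normalization, another tool, other filters and rule limits, thinning to 2000 UMIs, and leaving out each library. Numbers in the sample titles did not pair WT with Het libraries: correlations of deviations from the group means were 0.00037 and −0.00062 in the 2 kit versions. The genotype by kit comparison, the permutation within kit versions, and the levels and fits without WT S1 and WT S2 were chosen after seeing the data.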

Additional observations from a re-analysis of the deposited data

Results flagged for a closer look

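Of 128 groups of 4 libraries examined, 15 had 1 library far from the other 3, where chance alone flags about 1 in 20 groups of continuous values. In 6 of the 15 the other 3 libraries were at 0 UMIs, which fixes the gap, and 1 UMI was found for S100a8, 1 for Gm5483 and 2 for BC100530, so for these 3 genes the gap rests on 1 or 2 UMIs. As levels in eOBs in percent of UMIs, the separate libraries for genes of bone and stroma were Het S4 for Ibsp (0.181), Ifitm5 (0.0108) and Smpd3 (0.0167), Het S7 for Kitl (0.0151), Het S3 for Limch1 (0.0120) and WT S5 for Tnn (0.0330). For genes of haematopoietic cells and platelets they were Het S4 for S100a9 (0.00343) and BC100530 (0.00098), Het S8 for S100a8 (0.000279), WT S1 (0.0261) and Het S7 (0.0104) for Lyz2, Het S7 for Pf4 (0.00850) and Gm5483 (8.9e-05), and WT S1 for Ngp (0.0102). Het S7 also stood apart for Cd36 (0.00224).

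The Het minus WT difference had opposite signs in the kit versions for the eOB share of OBs, −15.1 points with version 3 and 6.83 with version 3.1, and for the share of eOBs with fibroblast markers, 21.8 and −3.79 points. These opposite signs were not tested. The Het effect on expression differed by test in 87 genes. Of these 87, the genes named in the report had log2 differences, version 3.1 minus version 3, of 2.83 for Cxcl12, 2.18 for Cp, 2.09 for Cdh2, 2.71 for Sned1, 2.49 for Igf1, 2.45 for Angpt1, 2.28 for Vdr, 3.67 for Trf, 2.73 for Kcnk2 and 1.92 for Ebf1. In the other direction the difference was −3.09 for Mia, −3.93 for 3110079O15Rik, −5.41 for Tnn, −5.56 for Sfrp2, −4.34 for Sox5, −3.33 for Mgp, −4.17 for Col9a2 and −2.11 for Top2a.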

How the results depend on the processing

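For Het against WT in eOBs, the count of called genes was 0 with edgeR, 3 with DESeq2, 141 without a low count filter, 117 within kit version 3, 1 with a rule of at least 1 UMI, 1 after thinning and 0 to 1 when a library was left out. With the replicate number as a block, 0 genes were called and 211 had p under 0.05, so the pairing changed no call. Between kit versions 3415 of 8118 genes were called, 1771 of 8901 with at least 3 UMIs, and 1505 of 3817 without cells carrying other class markers. The number was 2231 of 9071 without WT S1 and WT S2, and 2436 to 3465 when a library was left out. Other class markers in this section are haematopoietic, endothelial, smooth muscle and pericyte, and fibroblast markers, not those of cartilage. The genotype by subpopulation terms gave 90 (dOBs) and 29 (mOBs) without a filter and 0 to 1 without a library.

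The Het effect that differed between kit versions was in 87 genes, in 145 with at least 1 UMI, 410 without a filter, 47 with Col1a1 under 1%, 37 without cells of Col2a1 over 1%, 25 without cells carrying other class markers, 2 with mitochondrial share under 5%, 0 with Col1a1 under 0.5%, and 2 to 277 without a library. It could not be fitted with at least 3 UMIs. The causes were not tested.

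Genes higher than in dOBs numbered 59 without cells carrying other class markers, 248 without WT S1 and WT S2, and 133 to 212 without a library. Genes lower numbered 96 and 206 to 248, respectively. Genes lower than in non-OB cells numbered 253 without WT S1 and WT S2, and 115 to 144 without a library, and genes higher 262 to 351. Sox9 against dOBs was at 0.62 with a pseudocount of 0.01%, and 1.30 to 1.33 without a library. Cxcl12 with that pseudocount was at 0.54 against dOBs and 0.70 against non-OB cells, and without a library at 0.97 to 1.51 and 1.61 to 1.81. The Het minus WT eOB share of OBs ranged from −6.88 to 0.954 without a library (0.954 without WT S1). The endothelial share reversed to 0.756 (at least 1 UMI), 0.411 (at least 3 UMIs), 0.990 (mitochondrial under 5%), 0.814 (Col1a1 under 0.5%), 0.156 (thinned) and 0.416 (at least 2 markers), and ranged from −1.86 to 0.498 without a library. With Snorc counted under its older symbol the cartilage difference was 24.4 points. The cartilage share ranged from 9.01 to 38.4, the fibroblast share from 4.07 to 13.4, the haematopoietic share from −7.58 to −3.72 and the smooth muscle and pericyte share from 5.56 to 14.1. Tuba1a was at −0.13 without cells carrying other class markers and Hist1h1b at 1.03 with at least 3 UMIs. Settings with at least 3 UMIs left 6 libraries with enough eOBs for a fit, and those with Col1a1 under 0.5% or without cells carrying other class markers left 7. Of the other values of single genes, the fits that leave out each library in turn not counted, 449 stayed on their side of the threshold and in direction, 17 passed it, 8 no longer did and 5 moved. Fewer than 30 eOBs were found in 4 libraries.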
